A study of Caenorhabditis elegans with 31 samples.

Results

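The glutathione S-transferase genes of adult *Caenorhabditis elegans* were taken as every feature whose name starts with gst-, gsto- or gstk- and goes on with digits. The rule found 49 of 46904 features, of which 44 are gst, 3 gsto and 2 gstk genes. The measurements were unique molecular identifier (UMI) counts, each UMI standing for 1 captured RNA molecule, in single nuclei of whole worms of strain JK560, which carries fog-1(q253) in every group. This mutant makes no working sperm at the raised growth temperature, so the adults hold a germline but no fertilised embryos. The study asked how an exposure to alcohol is seen in later generations. Its 31 libraries fall into 5 batches. Untreated P0 worms gave 5 libraries: 1 sorted and 1 unsorted in batch 1, and 3 unsorted in batch 3. In F1, water and 0.05% ethanol each had 5 libraries, 2 in batch 2 and 3 in batch 5, and 0.5% ethanol had 3 libraries in batch 5. In F3, water and 0.05% ethanol each had 5 libraries, 2 in batch 2 and 3 in batch 4, and 0.5% ethanol had 3 libraries in batch 4. The labels give the dose and generation but not which ancestors were exposed or for how long, and their protocols differ on the age at collection, so no age is given here. They do not say that the libraries of a group came from separate cultures, so p-values measure only the spread between these libraries.

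Glutathione S-transferases join the tripeptide glutathione to reactive, electron-poor molecules, among them breakdown products of oxidised lipids and many foreign compounds, and the conjugates are then pumped out of the cell by transporters of the MRP family. Nematodes carry many copies of the cytosolic type (gst), beside omega-type enzymes (gsto), which also reduce oxidised thiols, and kappa-type enzymes (gstk), which work in mitochondria and peroxisomes. In *C. elegans* the transcription factor SKN-1 switches many of these genes on under oxidative or chemical stress, above all in the intestine, and gst-4 is the gene most often used to follow that response.

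Libraries held 1116 to 4850 nuclei, 1218248 to 25500166 UMIs and a median of 606 to 2149.5 UMIs per nucleus. The 3 libraries numbered replicate 2 in batch 5 were the shallowest, with 1218248 to 1439256 UMIs, and the lowest level of 28 of the 49 members was in one of them. Libraries shared cell barcodes: 5151 of 85180 nuclei carried a barcode also found in another library, up to 233 between a 0.05% ethanol F1 library and a water F3 library of batch 2, and results that rest on batch 2 are therefore also given without these nuclei. Nuclei of 20 clusters were named in 9 classes from marker genes, and 47.1% of the nuclei stayed in unnamed clusters. RNA outside its own cells was widespread. The yolk protein gene vit-2, which the intestine makes, had 27896 CPM (UMI counts scaled to 1000000 per library or class) in intestine-like nuclei but also 7436 to 11105 CPM in the other 8 named classes, whereas the pharyngeal myosin gene myo-2 had 1161 CPM in pharyngeal muscle-like nuclei against 19.3 to 117 CPM elsewhere among the named classes. Low levels outside the class where a gene peaks were therefore not read as expression there, and how much of them free RNA makes up was not tested.

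All 49 members had at least 1 UMI, 33 of them in each of the 31 libraries, and together they held 396255 UMIs. The 10 members with most UMIs held 80.65% of these. The other end was nearly empty: gst-18 had 6 UMIs, gst-37 had 10, gst-17 had 19, gst-8 had 61 and the omega gene gsto-2 had 92 UMIs in all libraries together. These 5 genes, gst-25 and gst-32 were too low to be tested, which left 42 members among 14189 tested genes. For order by class only the 28 members with at least 1000 UMIs were used.

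On the genome (WBcel235), 26 members lie on chromosome II, 9 on V, 5 on IV, 4 on III, 3 on X and 2 on I. Of the 49, 24 stand in 5 runs with no other protein-coding gene between them. The longest run holds 9 genes (gst-20, gst-24, gst-15, gst-14, gst-12, gst-16, gst-19, gst-17 and gst-18; II, 13608154 to 13630887) and the next 6 (gst-26, gst-27, gst-28, gst-29, gst-39 and gst-31; II, 15163817 to 15174965). Runs of 3 hold gst-6, gst-7 and gst-8, gst-32, gst-34 and gst-35, and gst-3, gst-2 and gst-4. Neighbouring members of such a family can share reads, and 14 members overlap another annotated gene. Whether the counting used strand, intron reads or reads that match several genes is not given in the sources used here, so values within a run are uncertain in this respect, and those of gst-17 and gst-18, which overlap each other, and of gst-4, which overlaps dhs-12 on the same strand, may hold reads of the partner.

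Per kilobase of exon, gst-10 had the highest level of the family in whole libraries. This gene (V, 2561690 to 2564645, 3 exons) encodes an enzyme known for conjugating the lipid breakdown product 4-hydroxynonenal. Its lowest, median and highest library had 161, 418 and 692 CPM, and its mean was 547 ± 157 CPM per kilobase (SD, n = 31). It was above the next gene, gst-4, in 30 of 31 libraries. gst-4 (IV, 10142225 to 10143099, 4 exons), the SKN-1 reporter gene, had 298 ± 80.7 CPM per kilobase. gst-7, the neighbour of gst-6 on chromosome II, had 295 ± 68.2. These 2 were not apart, as gst-4 was the higher in 17 of 31 libraries.

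gst-1 (III, 9059331 to 9060181, 3 exons), a pi-type enzyme, came next at 253 ± 33.8 CPM per kilobase and was above gst-20 in 31 of 31 libraries. The following 6 were gst-20 (130 CPM per kilobase), gst-27 (109), gst-13 (99.6), gst-5 (87.9), the kappa gene gstk-1 (85.9) and gst-36 (75.3). Each of the first 5 of these stood above the next in 15 to 21 of 31 libraries, whereas gst-36 was above gst-26, which follows, in 30 of 31. Lower down, the zeta-type gene gst-42, whose enzyme takes part in tyrosine breakdown, had 46.8 CPM per kilobase. Each UMI stands for 1 molecule, so division by exon length can change the order. By UMIs gst-10 was also first, with 86400, but gst-42 had 10448 and gst-26, which stood above it per kilobase, 8081. The omega genes gsto-3, gsto-1 and gsto-2 had 20.7, 18.1 and 0.53 CPM per kilobase, and gstk-2 had 4.84.

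The members varied between libraries to very different degrees. gst-1 was the steadiest of all 49, with 148 CPM in its lowest library, 188 in the median one and 269 in the highest, a coefficient of variation of 13.4%. Among members with at least 1000 UMIs the widest was gst-22, with 2.77 CPM in its lowest, 12.5 in its median and 60.4 in its highest library (76.1%). The sum of all members had a coefficient of variation of 20.4% and ran from 936 CPM (0.5% ethanol F1, batch 5 replicate 2) to 2538 CPM (0.05% ethanol F3, batch 4 replicate 1).

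By class of nuclei, the sum of all members was highest in intestine-like nuclei, at 2896 ± 429 CPM of the class's own UMIs (SD, n = 30 libraries), and in pharyngeal muscle-like nuclei, at 2710 ± 380 (n = 31). Neuron-like nuclei had 2177 ± 414 (n = 31), epidermis-like 1814 ± 268 (n = 21), body wall muscle-like 1730 ± 321 (n = 31) and coelomocyte-like nuclei 1705 ± 282 (n = 17). Classes were thus averaged over different sets of libraries, and their order may in part reflect which libraries entered. Among the named classes those of the gonad were lowest, with 1222 ± 330 CPM in gonadal sheath-like (n = 27), 1214 ± 285 in germline-like (n = 31) and 1063 ± 345 in spermatheca-like nuclei (n = 27). The unnamed cluster 10, which scored highest for the gonadal sheath markers, had 1844 ± 260 CPM. In germline-like nuclei, 15 of the 28 members were below the other nuclei of the same library in all 31 libraries. The share over all genes was not counted, so this is not a trait shown to be particular to the family. The clusters were made without the members, so these levels did not shape the classes, and they are given as a description with no test.

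**Figure D1:**
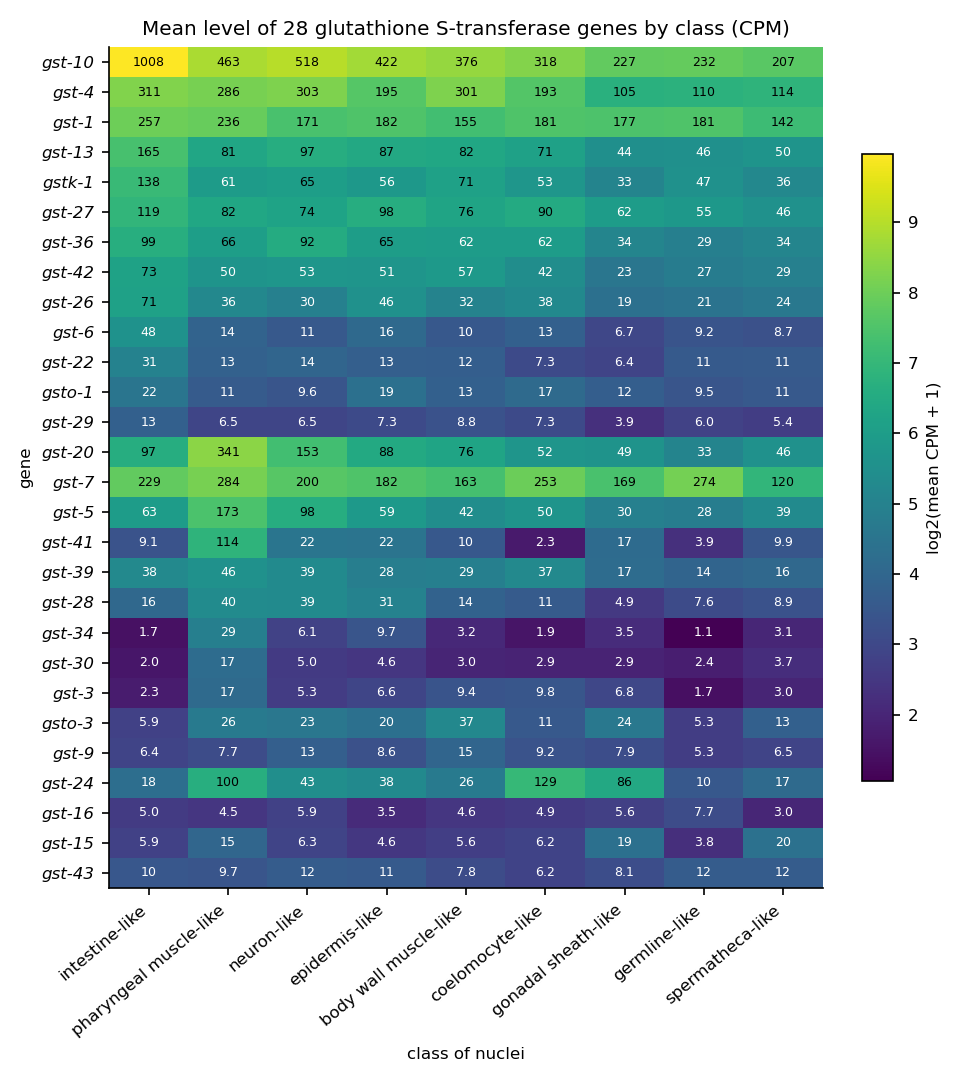
Mean level (CPM, printed in each cell; colour, log2 of CPM plus 1) of the 28 members with at least 1000 UMIs (rows) in the 9 named classes of nuclei (columns), over the libraries with at least 20 nuclei of the class. Rows are sorted by the named class with the highest mean: among these 9 classes 13 genes are highest in the intestine-like class and 9 in the pharyngeal muscle-like class. Unnamed clusters, some with higher levels, are not shown.

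Of the 28 members, 13 had their highest mean among the named classes in intestine-like nuclei and 9 in pharyngeal muscle-like nuclei. In the intestine group, unnamed clusters were higher still for gst-4 and gst-36 (cluster 25), gst-27 and gst-29 (cluster 0), gst-1 (cluster 10) and gsto-1 (cluster 14). In the pharyngeal group this held for gst-7 (cluster 13) and gst-30 (cluster 20). The other 6 were spread over body wall muscle-like (gsto-3 and gst-9), spermatheca-like (gst-43 and gst-15), coelomocyte-like (gst-24) and germline-like nuclei (gst-16). Several of these were not apart from their second class. gst-24 was higher in coelomocyte-like than in pharyngeal muscle-like nuclei in 7 of 17 libraries. For gst-43 and gst-15 the first class was higher in 12 of 27 and 12 of 25 libraries, and for gst-9 and gst-16 in 20 and 22 of 31. With finer clusters 22 of 28 members kept their class (gst-1, gst-4, gst-7, gst-28, gst-36 and gst-43 moved). With at least 50 nuclei 24 did (gst-4, gst-15, gst-24 and gst-43 moved). With doublets kept 25 did (gst-4, gst-7 and gst-43 moved), and without shared barcodes 28. These counts compare named classes only, so an unnamed cluster could not take the first place.

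In the intestine group gst-10 led, with 1008 ± 233 CPM in intestine-like nuclei (n = 30) against 518 ± 147 in neuron-like nuclei, the next class, and it was higher in the intestine-like class in 30 of 30 libraries. Its lowest class was spermatheca-like at 207 ± 100 CPM. Its highest class was 4.87-fold above its lowest, and vit-2 in the same classes had 27896 and 7436 CPM. gst-13 had 165 ± 76.7 CPM in intestine-like nuclei against 96.5 ± 31.8 in neuron-like nuclei, and was higher in 27 of 30 libraries. The mitochondrial and peroxisomal gene gstk-1 had 138 ± 57.3 against 70.7 ± 21.97 in body wall muscle-like nuclei, higher in 29 of 30.

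gst-6 was the most intestine-biased of the group relative to the second class, with 47.7 ± 15.9 CPM against 16.2 ± 13.7 in epidermis-like nuclei (20 of 21 libraries). Not every gene that peaked there stood apart: gst-4 had 311 ± 77.9 CPM in intestine-like and 303 ± 93.4 in neuron-like nuclei, and was the higher in the intestine-like class in 13 of 30 libraries. gst-1 had 257 ± 62.7 CPM in intestine-like nuclei and 142 ± 53.1 in its lowest class, spermatheca-like, which made it the flattest of the 28 members across classes, at 1.80-fold. gst-42 had 72.7 ± 32.2 CPM in the intestine-like class and 56.6 ± 18.8 in body wall muscle-like nuclei. The omega gene gsto-1, known in *C. elegans* for intestinal expression, had 22.05 ± 14.8 CPM in intestine-like nuclei but its highest level, 48.0 ± 19.1 CPM, in the unnamed cluster 14, where vit-2 stood at 20063 CPM.

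**Figure D2:**
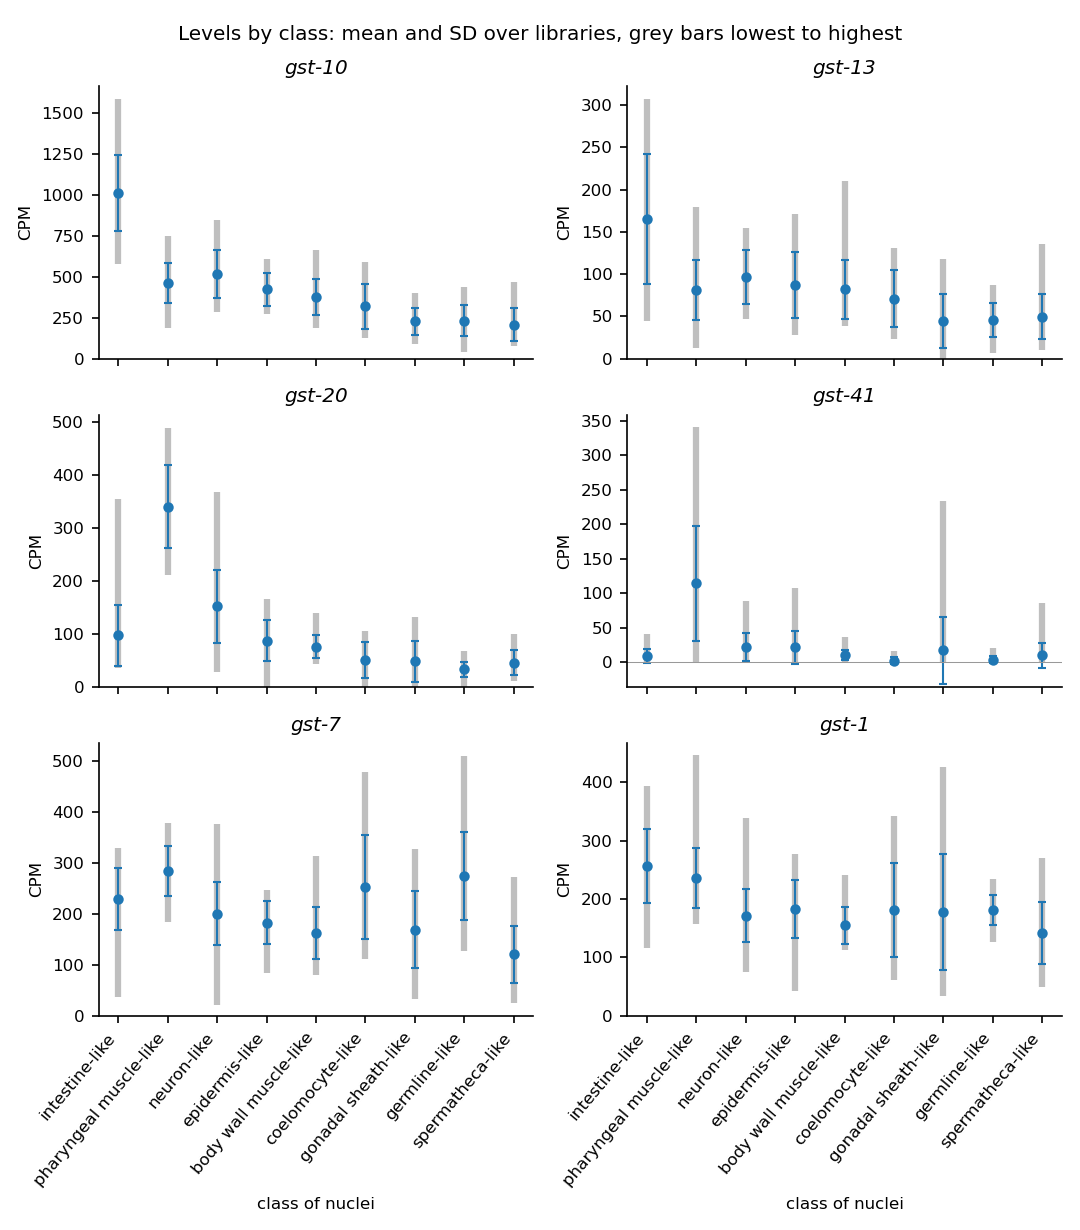
CPM (vertical axes, linear) of 6 members in the 9 named classes (horizontal axes). Points are means over libraries, blue bars 1 SD and grey bars the lowest to the highest library. gst-10 and gst-13 peak in intestine-like nuclei, gst-20 and gst-41 in pharyngeal muscle-like nuclei, and gst-7 and gst-1 span 2.36-fold and 1.80-fold between their highest and lowest class.

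Some genes of the pharyngeal group had sharper contrasts. gst-20 had 341 ± 79.0 CPM in pharyngeal muscle-like nuclei (n = 31) against 153 ± 69.1 in neuron-like nuclei, higher in 30 of 31 libraries, and 33.2 ± 14.2 in germline-like nuclei, its lowest class. gst-5 had 173 ± 52.9 against 98.0 ± 33.7 CPM in neuron-like nuclei, higher in 28 of 31. gst-41 had 114 ± 82.9 against 22.1 ± 19.9 CPM in neuron-like nuclei, higher in 29 of 31, and 2.26 ± 5.20 in coelomocyte-like nuclei. From the highest to the lowest class gst-20 spanned 10.3-fold, gst-5 6.19-fold and gst-41 50.5-fold, where the widest of the intestine group was gst-6 at 7.13-fold.

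Smaller genes of the same group were gst-34, with 29.1 ± 21.2 CPM against 9.66 ± 18.4 in epidermis-like nuclei (20 of 21 libraries), gst-30, with 17.4 ± 13.7 against 4.96 ± 5.65 in neuron-like nuclei (26 of 31), and gst-3, with 16.6 ± 8.01 against 9.77 ± 12.7 in coelomocyte-like nuclei (15 of 17). The pharyngeal class was itself uneven. Cluster 23, with the sarcomere genes myo-1, myo-2 and tnt-4 among its 10 leading genes, had 866 ± 254 CPM of gst-20, 392 ± 178 of gst-5 and 223 ± 103.8 of gst-24 (n = 23 libraries). Cluster 3, with ttr-22 and abf-6 among its leading genes, had 205 ± 38.3 CPM of gst-20, 125 ± 37.97 of gst-5 and 62.8 ± 28.8 of gst-24 (n = 31). gst-41 was close in both, at 103 ± 91.4 CPM in cluster 23 and 131 ± 110.05 in cluster 3.

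gst-7 differed from the other abundant members in its germline level. It had 284 ± 48.6 CPM in pharyngeal muscle-like and 274 ± 87.1 in germline-like nuclei, and stood above all other members per kilobase in the germline-like class and in the unnamed cluster 13, where gst-10 came second. gst-10 was first in the other 18 of 20 classes and unnamed clusters. Within the germline-like class gst-7 had 582 ± 234 CPM in cluster 18, with fem-3 and cdc-25.3 among its leading genes, and 374 ± 97.3 in cluster 7, against 158 ± 59.1 in cluster 2 and 101 ± 55.7 in cluster 17, both led by the meiotic kinase gene chk-2. Its neighbour gst-6 had 9.24 ± 5.19 CPM in germline-like nuclei.

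gst-24 was high in 3 named classes, with 129 ± 114.5 CPM in coelomocyte-like (n = 17), 100.4 ± 37.6 in pharyngeal muscle-like and 86.1 ± 71.9 CPM in gonadal sheath-like nuclei, and low in germline-like nuclei at 10.3 ± 7.96. Among the genes with few UMIs, single unnamed clusters stood out. gst-9 had 70.9 ± 91.0 CPM in cluster 6 against 14.7 ± 10.1 in body wall muscle-like nuclei, gst-16 had 36.8 ± 28.6 in cluster 13 against 7.69 ± 4.93 in germline-like nuclei, and gst-21 had 46.5 ± 27.7 in cluster 20, led by the neuropeptide genes nlp-20 and nlp-12, against 6.74 ± 10.3 in neuron-like nuclei. The omega gene gsto-3 had 36.6 ± 17.2 CPM in body wall muscle-like and 25.6 ± 15.5 in pharyngeal muscle-like nuclei, and was higher in the body wall class in 23 of 31 libraries.

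Across the 20 classes and unnamed clusters, the mean levels of 2 members were compared as log2(CPM + 1). The 18 pairs within a run had a median Pearson r of 0.53 (−0.35 to 0.93) and the other 360 pairs one of 0.21 (−0.58 to 0.95). The higher values came from a single run: pairs among gst-26, gst-27, gst-28, gst-29 and gst-39 had r of 0.52 to 0.93. In the other runs r was −0.35 to 0.49. Members of a run can also share reads, so these values are uncertain in this respect. The profiles most alike were those of gst-10 and gst-13 (0.95), gst-4 and gst-42 (0.94), gst-26 and gst-27 (0.93) and gst-20 and gst-5 (0.91). Only gst-26 and gst-27 of these pairs are neighbours. gst-16 and gst-20, from the same run, had the lowest r among neighbours. The points share libraries, depth and free RNA, so these values are descriptions with n = 20 and no test.

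No member passed the test for ethanol. In each of the 4 comparisons of ethanol with water 0 of 42 members and 0 of 14189 genes (0%) had an adjusted p below 0.05 by edgeR's quasi-likelihood test with Benjamini-Hochberg adjustment, and the same held between the doses and between the effects in the 2 generations. With the replicate number as a block, 0 members and 3 of all genes passed for 0.5% ethanol in F3. In summed counts of whole worms, fewer cells of a type and less RNA per cell cannot be told apart. Within classes of nuclei, where 5 (gonadal sheath-like) to 30 (pharyngeal muscle-like) members could be tested, none passed in these comparisons, and 0 of 45618 pairs of gene and class did (0%). At an unadjusted p below 0.05 stood 3 pairs of member and class for 0.05% ethanol F1 (2.46% of the members' pairs and 3.02% of all pairs; 2 higher, 1 lower), 2 for 0.05% F3 (1.64% and 3.33%; 1 higher, 1 lower), 6 for 0.5% F1 (4.92% and 2.86%; 3 higher, 3 lower) and 8 for 0.5% F3 (6.56% and 2.75%; 0 higher, 8 lower). gst-24 made up 3 of those 8, in germline-like, neuron-like and body wall muscle-like nuclei. The 3 higher pairs in 0.5% F1 were all in pharyngeal muscle-like nuclei. There gst-41 had 320, 147 and 222 CPM with ethanol, against 92.7, 0 and 48.5 CPM with water, and gst-35 had 40.7, 36.6 and 40.9 CPM, against 12.3, 17.7 and 8.08 CPM. The groups did not overlap for either gene (log2 changes 1.48 and 1.87, adjusted p = 1 by edgeR), and replicate 2 rests on 8 and 0 UMIs of gst-41 and on 2 and 1 UMIs of gst-35. The third was gsto-3 (1.00). The share of all pairs of gene and class without overlap was not counted, here and for the classes below.

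For the 11 members with at least 10000 UMIs the fits set bounds on what could have been missed. With 0.05% ethanol their log2 changes ran from −0.33 to 0.03 in F1 and from −0.19 to 0.26 in F3, and no 95% interval reached below −0.78 or above 0.71. With 0.5% ethanol they ran from −0.52 to −0.07 in F1 and from −0.58 to −0.08 in F3, with interval ends at −1.09 and 0.48. All 11 estimates were below 0 at the higher dose in both generations. Of all 42 members, 30 were below 0 with 0.5% ethanol in F1 (53.8% of all genes) and 37 in F3 (50.1% of all genes), and the median log2 change was −0.16 and −0.25, where all genes had medians of −0.02 in F1 and −0.00033 in F3. The members' median in F1 turned on single libraries: it was 0.005 without replicate 2 of 0.5% ethanol F1, −0.29 without its replicate 1 and −0.06 without replicate 1 of water F1, whereas in F3 it stayed between −0.29 and −0.20 whichever library was left out. With 0.05% ethanol, 28 of 42 were below 0 in F1 (52.4% of all genes) and 21 in F3 (46.6%). The 2 doses share their water libraries in batches 4 and 5, so their values are not independent.

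**Figure D3:**
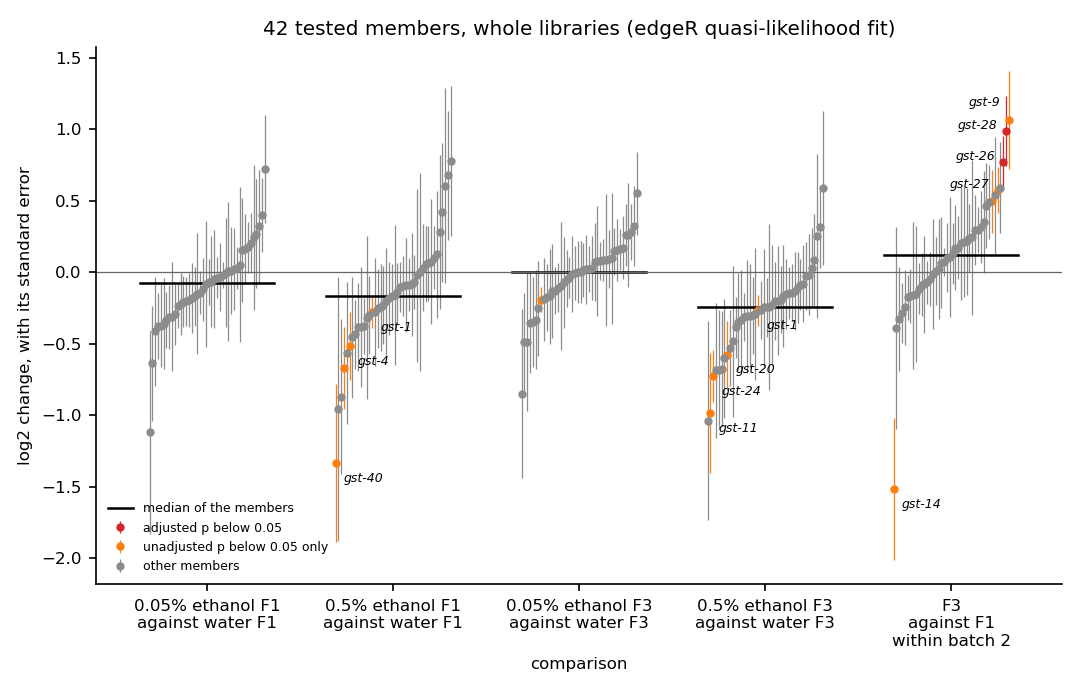
Log2 change (vertical axis, with its standard error from edgeR) of the 42 tested members in 4 comparisons of ethanol with water and in F3 against F1 within batch 2, each sorted by size; black lines are medians. At 0.5% ethanol 30 members in F1 and 37 in F3 lie below 0, and only gst-26 and gst-28 in the F3 against F1 comparison pass an adjusted p of 0.05.

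In whole libraries, members below an unadjusted p of 0.05 numbered 0 of 42 for 0.05% ethanol in F1 (1% of all genes), 1 for 0.05% in F3 (1%), 4 for 0.5% in F1 (2.06%) and 4 for 0.5% in F3 (4.32%). Each of these estimates was below 0, and gst-1 was among them in 3 of the 4 comparisons. Its libraries had 154, 148 and 157 CPM in 0.5% ethanol F1, against 184, 182 and 186 in water F1 of the same batch, with no overlap, and the 0.05% ethanol F1 libraries of that batch had 178 to 186 CPM. The 0.5% ethanol F1 libraries lay wholly below the water libraries for 4 of the 42 members and wholly above for 1. The share over all genes was not counted for this comparison. The log2 change of gst-1 was −0.28 (95% interval −0.51 to −0.05, adjusted p = 1 by edgeR). In F3 it had 188, 185 and 165 CPM with 0.5% ethanol, against 201, 235.4 and 188 with water, where the groups overlapped (log2 change −0.27, adjusted p = 0.976 by edgeR). With 0.05% ethanol in F3 its change was −0.19 (adjusted p = 1 by edgeR).

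In 0.5% ethanol F1 the stress reporter gst-4 had 160, 96.2 and 144 CPM, against 276, 138 and 162 CPM in water F1, and the groups overlapped. Its log2 change was −0.52 (95% interval −1.01 to −0.02, adjusted p = 1 by edgeR), and −0.27 without replicate 1 of water F1. gst-15 had a change of −0.67, and −0.36 without the same library. gst-40, with 1 to 7 UMIs in each ethanol library, had one of −1.34. The other estimates of gst-4 were −0.20 (0.05% F1), 0.02 (0.05% F3) and −0.19 (0.5% F3), with an upper 95% bound of at most 0.41. gst-10 had estimates between −0.30 and 0.16 in the same 4 comparisons.

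With 0.5% ethanol in F3 the smallest unadjusted p of any member was 0.000555 (gst-24). It had 20.7, 26.3 and 23.4 CPM with ethanol, against 31.4, 41.05 and 35.4 CPM with water, with no overlap, and a log2 change of −0.73 ± 0.18 (SE, adjusted p = 0.976 by edgeR). Its run neighbour gst-20 had 71.6, 108 and 89.9 CPM, against 109, 141 and 141 CPM (−0.58, adjusted p = 0.976 by edgeR). gst-5 had 50.4, 58.95 and 57.3 CPM with ethanol, against 67.0, 80.1 and 81.1 CPM (−0.53). gst-11, with 4 to 20 UMIs in each ethanol library, had a change of −0.99, and −1.52 without replicate 2 of 0.5% ethanol F3. gst-20 and gst-5 had their highest class mean in pharyngeal muscle-like nuclei and gst-24 its second highest. Libraries of batch 4 share barcodes too, and without those nuclei the change of gst-24 was −0.67. Ethanol libraries lay wholly below water libraries for 6 of the 42 members, these 3, gst-11, gst-21 and gst-35, and for 7.14% of all genes. They lay wholly above for 1 member, gst-44, and for 11% of all genes.

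Markers of several tissues also stood apart in these libraries. The 6 pharyngeal muscle markers summed to 585 to 783 CPM in the 0.5% ethanol F3 libraries, against 949 to 1372 CPM in the water F3 libraries of batch 4. 3 of the 6 had an unadjusted p below 0.05, 0 passed the threshold and none was at 0. The 10 neuron markers summed to 541 to 622 CPM with ethanol, against 667 to 708 CPM with water, and the 5 pharyngeal gland markers to 19.4 to 24.5 CPM, against 27.8 to 40.3 CPM. The 10 germline markers were higher, at 1743 to 1789 CPM with ethanol, against 1357 to 1681 CPM with water. None of these lists had a member at 0 or past the threshold. Pharyngeal muscle-like nuclei were 4.57 to 9.88% of nuclei with ethanol, against 9.76 to 13.7% with water, so these shares overlapped. The unnamed cluster 0, with the yolk genes vit-2 and vit-3 among its leading genes, was 25.9 to 38.7% against 10.9 to 20.3%. Shares of gonadal sheath-like nuclei and of the unnamed clusters 4, 10 and 14 were lower with ethanol, with no overlap. gst-24 was also high in gonadal sheath-like nuclei. Inside pharyngeal muscle-like nuclei the groups overlapped: gst-24 had 84.5, 78.6 and 94.5 CPM with ethanol, against 97.6, 132 and 86.0 with water (log2 change −0.32, adjusted p = 1 by edgeR), and gst-20 had 310, 319 and 348 CPM, against 345, 435 and 310 (−0.18). In neuron-like nuclei the groups did not overlap, for genes picked because they were low in the same whole libraries. There gst-24 had 22.2, 25.9 and 15.6 CPM with ethanol, against 29.03, 46.2 and 31.7 with water (−0.78, adjusted p = 1 by edgeR), from 5 to 23 UMIs against 13 to 41. gst-20 had 118, 103.6 and 77.9 CPM with ethanol, against 138, 156 and 125 with water (−0.46), and gst-5 had 66.6, 71.0 and 74.8 CPM, against 75.9, 104.8 and 81.0 (−0.53). The part of these shifts in the values of whole libraries was not tested.

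**Figure D4:**
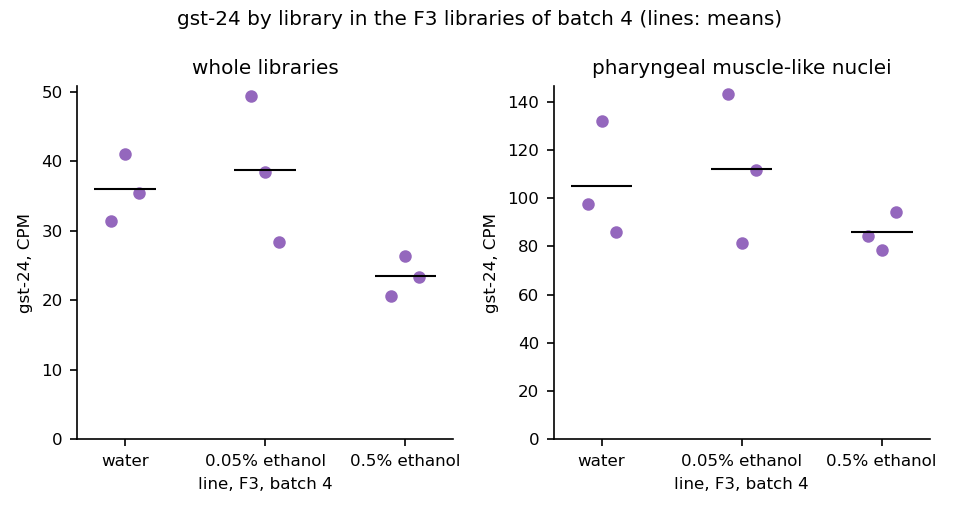
gst-24 (CPM) in each F3 library of batch 4 (points; lines are means), by line from water to 0.5% ethanol, in whole libraries (left) and in pharyngeal muscle-like nuclei alone (right). In whole libraries the 0.5% ethanol libraries (20.7 to 26.3) lie below the water libraries (31.4 to 41.05), and in pharyngeal muscle-like nuclei the groups overlap.

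In germline-like nuclei gst-24 had 5.20, 4.31 and 1.61 CPM with 0.5% ethanol in F3, against 18.6, 10.0 and 24.9 CPM with water. The groups did not overlap, and the values rest on 6, 7 and 1 UMIs against 15, 10 and 19 UMIs. Germline-like was the lowest named class of gst-24, a gene picked because it was low in the same whole libraries. The part of free RNA in these values was not tested. The log2 change was −2.35 ± 0.63 (SE, adjusted p = 1 by edgeR). Over the alternatives for gst-24 in this class the adjusted p ran from 0.0490, without a filter on low counts, to 1 by edgeR, and with finer clusters the change was −1.14. Between the doses, 4 members had an unadjusted p below 0.05 in F3 (4.63% of all genes) and 1 in F1 (1.52%). The smallest in F3 was again that of gst-24, with a log2 change of −0.69 (adjusted p = 0.939 by edgeR), and its 0.05% ethanol F3 libraries of batch 4 had 28.4 to 49.4 CPM. The 1 in F1 was gst-1 (−0.26, adjusted p = 1 by edgeR). For 0.05% ethanol in F1 the smallest unadjusted value was 0.0704 (gst-19). When the effect in F3 was set against that in F1, 0 members were below 0.05 unadjusted at the lower dose (1.04% of all genes; gst-6 was nearest, with 0.58 on the log2 scale) and 1 at the higher (1.06%; gst-35, −1.46), where generation coincides with batch.

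Between generations 2 members passed the test. Batch 2 is the only batch with both F3 and F1 libraries, 4 of each, with water and 0.05% ethanol weighing equally. There 405 of 14189 genes (2.85%) were called, 105 of them higher in F3 (0.74%), and 2 of 42 members were called, gst-26 and gst-28, both higher in F3. At an unadjusted p below 0.05 there were 6 members, 5 of them higher, and 16.2% of all genes. The median log2 change was 0.12 over the members and 0.03 over all genes, and that of the members ran from 0.05 without replicate 1 of water F3 to 0.20 without its replicate 2.

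gst-26 (II, 15163817 to 15164553, 2 exons) had 61.3 and 44.3 CPM in the 0.05% ethanol and 69.7 and 63.8 CPM in the water libraries of F3, against 33.4 and 32.3 CPM in the 0.05% ethanol and 38.3 and 41.5 CPM in the water libraries of F1. The generations did not overlap, and gst-26 rose by 0.77 on the log2 scale in F3 (SE 0.19, adjusted p = 0.0239 by edgeR). gst-28 (II, 15166194 to 15167577, 3 exons) had 43.0 and 33.9 CPM in 0.05% ethanol F3 and 39.8 and 40.1 CPM in water F3, against 20.7 and 21.005 CPM in 0.05% ethanol F1 and 15.4 and 23.9 CPM in water F1. It rose by 0.99 in F3 (SE 0.24, adjusted p = 0.0276 by edgeR), again with no overlap.

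gst-27, which lies between these genes, had 121.9, 110.2, 106 and 87.1 CPM in F3, against 73.6, 80.7, 76.7 and 63.7 CPM in F1. Its groups did not overlap either, but its log2 change of 0.57 missed the threshold (SE 0.16, adjusted p = 0.0533 by edgeR). It passed with a replicate block, by DESeq2, with doublets kept, and without replicate 2 of 0.05% ethanol F3 or replicate 2 of water F1, and leaving out each library of batch 2 in turn gave adjusted p of 0.0308 to 0.191 by edgeR. The next genes of the run overlapped between generations: gst-29 had 7.34 to 11.5 CPM in F3 and 5.36 to 9.16 CPM in F1 (0.47, SE 0.30), gst-39 22.9 to 31.5 CPM in F3 and 27.4 to 31.4 CPM in F1 (−0.07, SE 0.15), and gst-31 had 172 UMIs in all libraries together. Outside this run, gst-36 had non-overlapping, higher libraries in F3 (0.29, SE 0.16) and gst-14 non-overlapping, lower ones (−1.52, SE 0.50, adjusted p = 0.105 by edgeR), with 4 to 19 UMIs in each F3 and 10 to 30 in each F1 library. In all, F3 lay wholly above F1 for 4 members and 4.38% of all genes, and wholly below for 1 member and 5.22% of all genes. gst-9 had 9.16, 7.71, 14.3 and 3.28 CPM in F3, against 4.38, 3.77, 3.90 and 4.98 CPM in F1 (1.06, adjusted p = 0.097 by edgeR).

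**Figure D5:**
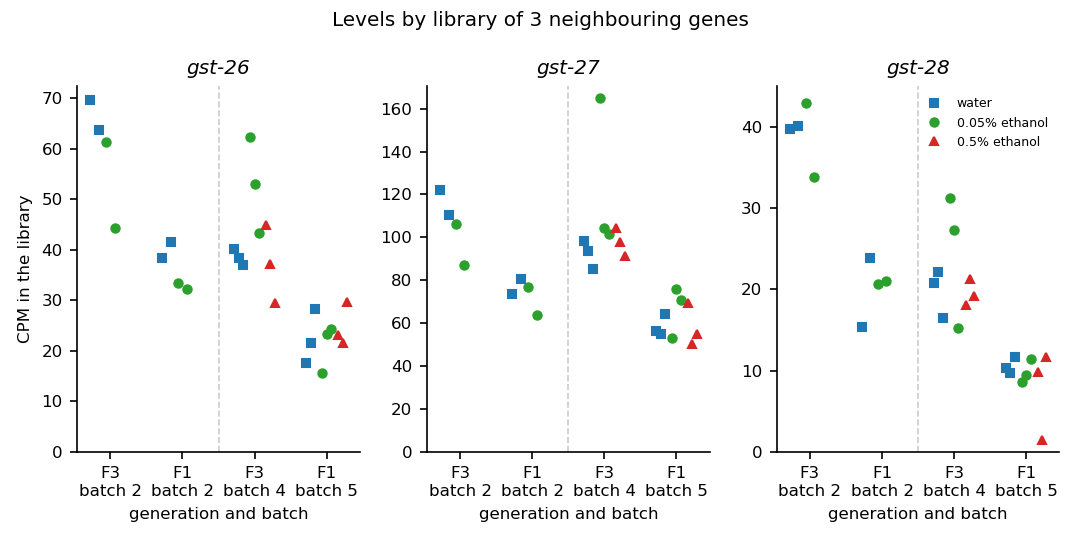
CPM of gst-26, gst-27 and gst-28 in each library, with F3 left of F1 for batch 2 and, right of the dashed line, the F3 libraries of batch 4 and the F1 libraries of batch 5; colours and symbols give water, 0.05% and 0.5% ethanol. In batch 2 each F3 library lies above each F1 library for all 3 genes.

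The 3 neighbours were picked because they were higher in F3 in the same whole libraries. Class counts are parts of those sums, so higher estimates within classes are no separate support. The part of free RNA in them was not tested. Their estimates were above 0 in each class of nuclei that could be tested. gst-26 was above 0 in 5 of 5 classes tested (log2 changes 0.61 to 1.29), gst-27 in 6 of 6 (0.52 to 0.95) and gst-28 in 4 of 4 (0.59 to 1.08), although no pair of member and class passed the threshold, where 270 of 45618 pairs of gene and class (0.592%) did. At an unadjusted p below 0.05 there were 17 member pairs and 11.8% of all pairs. The nearest was gst-27 in intestine-like nuclei (0.95, SE 0.26, adjusted p = 0.0801 by edgeR). Germline-like nuclei were 8.50 to 11.1% of nuclei in F3, against 11.4 to 15.3% in F1, and 2 of 8 oocyte markers were called lower in F3. In germline-like nuclei themselves gst-26 had a change of 1.29 (SE 0.42) and gst-28 one of 1.06 (SE 0.49). That of gst-26 rests on 8 to 60 UMIs in each F3 and 3 to 17 in each F1 library. The 9 intestine markers summed to 21161 to 25508 CPM in F3, against 17846 to 29229 CPM in F1, with 0 of 9 called.

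Without the nuclei of shared barcodes gst-26 had a log2 change of 0.79 (adjusted p = 0.0355 by edgeR) and gst-28 one of 1.02 (adjusted p = 0.0467 by edgeR). Both calls were lost on leaving out replicate 1 of 0.05% ethanol F1, 0.05% ethanol F3, water F1 or water F3, or replicate 2 of water F3, with adjusted p of 0.0925, 0.0506, 0.106, 0.0893 and 0.0999 for gst-26 and 0.0900, 0.0707, 0.166, 0.0710 and 0.101 for gst-28 by edgeR. Both were also lost in a fit of the 8 libraries alone (adjusted p = 0.114 and 0.0959 by edgeR), in which 0 of all genes passed. What else differed between the F3 and F1 collections of batch 2 is not given by the labels.

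Elsewhere generation and batch cannot be told apart, so the other libraries are a description only. In the F3 libraries of batch 4, gst-26 had 29.5 to 62.4 CPM, gst-27 85.0 to 165 CPM and gst-28 15.2 to 31.3 CPM. In the F1 libraries of batch 5, gst-26 had 15.6 to 29.7 CPM, gst-27 50.3 to 75.7 CPM and gst-28 1.48 to 11.7 CPM. The 3 untreated P0 libraries of batch 3 had 9.2 to 17.9 CPM of gst-26, 28.96 to 44.7 of gst-27 and 3.79 to 14.7 of gst-28. For gst-27 and gst-28 the ranges of batches 4 and 5 did not overlap.

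The rest of the glutathione pathway was read from 6 lists. They held 9 genes of glutathione synthesis and recycling, 8 glutathione peroxidases, 3 glyoxalase and deglycase genes, 8 MRP exporters, 9 regulators of SKN-1 and 15 other antioxidant enzymes, of which 13 were tested. In the 8 comparisons of ethanol 0 of these genes passed the threshold. With 0.5% ethanol in F3, 5 were lower at an unadjusted p below 0.05 and 0 higher: gpx-3 (−1.15) and gpx-5 (−0.61), peroxidases, mrp-2 (−0.47), an exporter, and the superoxide dismutases sod-3 (−0.52) and sod-4 (−0.61). gpx-3 was also among the leading genes of the pharyngeal cluster 23. The medians of the 6 lists in that comparison ran from −0.13 to 0.06, and that of the transferase genes was −0.25. In F3 against F1 of batch 2, 2 list genes rose: the exporter gene mrp-3 by 0.70 (SE 0.14, adjusted p = 0.00614 by edgeR) and the peroxidase gene gpx-7 by 0.71 (SE 0.17, adjusted p = 0.0218 by edgeR). Without shared barcodes mrp-3 had a change of 0.72 and gpx-7 one of 0.76, and both passed. The call of mrp-3 was lost without replicate 2 of water F3 (adjusted p = 0.0573 by edgeR). That of gpx-7 was lost without replicate 1 of 0.05% ethanol F1, replicate 2 of 0.05% ethanol F3, replicate 1 of water F1, replicate 1 of water F3 or replicate 2 of water F3 (adjusted p = 0.123, 0.0576, 0.143, 0.0525 and 0.0841 by edgeR). Both were lost in the fit of the 8 libraries alone. The genes of glutathione synthesis and recycling had a median of 0.007 there and none passed.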

How the data were processed

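The authors deposited, for each library, a sparse matrix of raw UMI counts (genes by nuclei), written by software release 3.0.2 per the file headers. Cell Ranger and the genome build ce10 are named in the submitters' processing notes, and use of strand or introns is not given in the sources used here. Matching to the WBcel235 annotation (Ensembl) was by gene identifier, for 46817 of 46904 identifiers (99.8%) and 49 of 49 members, and positions and exon lengths come from it. The smallest nucleus held 372 UMIs. In each library the nuclei most like simulated doublets were removed (0.8% per 1000 nuclei, 2168 in all), which left 83012.

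Nuclei were clustered without the members (2000 variable genes, 30 principal components corrected for library, 15 neighbours, leidenalg 0.10.2, resolution 1). Clusters with 50 or more nuclei took a name if the best marker list had a mean log2 fold of at least 0.8, at least 0.5 above the next, with at least 3 markers raised 1.5 times and seen in 10% of its nuclei. 20 of 39 clusters were named. Class values need 20 or more nuclei in a library.

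Sums of counts, for whole libraries and for each class within a library, were tested with edgeR 4.0.16 (R 4.3.3; quasi-likelihood, TMM, filterByExpr) in 1 fit of 26 libraries, with 1 intercept per combination of batch and generation and 1 term per dose in each generation. Calls are adjusted p values below 0.05 (Benjamini-Hochberg, all genes), and 95% intervals use 18 residual degrees of freedom. CPM of whole libraries are scaled by TMM and those of classes by the class's UMIs. The untreated P0 libraries share no batch with water and entered no test. The fits were tested on simulated data.

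Members, lists and markers were chosen with earlier results of these data known. Named members are those called, the one with the smallest p in each comparison, the 10 highest per kilobase, the highest in each class and 9 of known role, and others with few UMIs or extreme values were picked after their values were seen. Same-numbered libraries of a batch deviated together over 6841 genes with r of 0.54 to 0.76 for 0.05% ethanol and water in F1, 0.57 to 0.68 for 0.5% ethanol and water in F1, and 0.21 to 0.65 for 0.5% ethanol and water in F3. What these numbers stand for is not given in the labels. Alternatives were other size factors, no filter, DESeq2 1.42.0, doublets kept, only the libraries compared, a replicate block, finer clusters, at least 50 nuclei, each library left out and, chosen after seeing the data, nuclei of shared barcodes left out.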

Additional observations from a re-analysis of the deposited data

Results flagged for a closer look

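In groups of 4 or 5 libraries, 5 of 140 sets of values held a library far from the others, where chance flags about 1 in 20. The sum of all members was 2538 CPM in replicate 1 of 0.05% ethanol F3 in batch 4, and the next library of that group had 2044 CPM. gst-27 had 165 CPM in the same library, and the next had 106 CPM. gst-35 had 12.9 CPM in replicate 2 of 0.05% ethanol F3 in batch 2, where the next library had 4.75 CPM. gst-5 was lowest in replicate 1 of 0.05% ethanol F3 in batch 2, with 61.3 CPM, and the next had 77.7 CPM. The kappa gene gstk-2 was lowest in replicate 1 of water F3 in batch 4, with 3.20 CPM, and the next had 5.10 CPM.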

How the results depend on the processing

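In the 8 ethanol comparisons of whole libraries 0 members were called under each alternative run, the replicate block included. In F3 against F1, where 2 members were called, DESeq2 called 5, the fit of only the compared libraries 0 and the fit with a replicate block 5, and leaving out 1 library gave 0 to 4. The 5 were gst-9, gst-14, gst-26, gst-27 and gst-28 in both cases, and with doublets kept gst-27 was called too. Over all genes DESeq2 called 702, the block 1638 and the leave-one-out fits 103 to 620, against 405. In classes of nuclei the count was 0 in every comparison. Without a filter it was 1 for 0.5% ethanol F1 (gst-41, higher, pharyngeal muscle-like), 1 for 0.5% ethanol F3 (gst-24, lower, germline-like) and 1 for F3 against F1 (gst-14, pharyngeal muscle-like), and for the last DESeq2 and the block each called 1 (gst-27, intestine-like). The 2 called list genes became 0 in the fit of only the compared libraries and 0 to 3 on leaving out 1 library. The cause of these moves was not tested. In whole libraries, signs were checked only where a member had an unadjusted p below 0.05 or the smallest of its comparison. None changed there, but such members were unlikely to change sign, and the other changes named above were not checked. On leaving out 1 library the members' median ran from −0.29 to 0.005 for 0.5% ethanol F1, from −0.06 to 0.03 for 0.05% ethanol F3 and from −0.23 to 0.05 for 0.5% against 0.05% in F1. Same-numbered libraries deviated together most in ethanol against water in F1, with r of 0.54 to 0.76 over both doses. For 0.5% ethanol and water in F3, r was 0.65 in replicate 1 but 0.25 and 0.21 in replicates 2 and 3. For 0.05% ethanol and water in F3 the pairs of batch 4 had r of 0.17 to 0.35 and those of batch 2 −0.014, so not every pair deviated together. In F3 against F1 of batch 2, r was 0.52 for 0.05% ethanol but 0.066 for water, so the block result there rests on numbers that paired 1 of its 2 arms. With a median standard error of 0.24 to 0.32 for members on the log2 scale in ethanol against water, changes of low members were not detectable at this depth, and intervals cover only the spread between these libraries.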
